A study of Homo sapiens with 58 samples.

Results

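The TFAP2 family loci were described by chromatin accessibility in cranial neural crest cells (CNCCs) as the level of the transcription factor SOX9 was lowered. The members were all regulatory elements (REs, the accessible regions counted in the study) with a midpoint inside the gene body of TFAP2A, TFAP2B, TFAP2C, TFAP2D or TFAP2E, or within 100 kb of a GENCODE v44 start site of these genes on hg38. This rule used position only and gave 80 of 151457 REs, of which 30 belonged to TFAP2A, 17 to TFAP2B, 14 to TFAP2C, 10 to TFAP2D and 16 to TFAP2E. TFAP2B and TFAP2D are neighbours on chromosome 6 and shared 7 of these REs. TFAP2A is also on chromosome 6, TFAP2C is on chromosome 20 and TFAP2E is on chromosome 1.

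The genes of the family encode the AP-2 proteins, which bind DNA as dimers at a GC-rich palindrome. AP-2α, the product of TFAP2A, acts at the neural plate border and in neural crest cells, where it is among the early regulators of crest identity and of facial development, and AP-2β, the product of TFAP2B, is made in overlapping crest and craniofacial domains. AP-2γ, the product of TFAP2C, is known from trophoblast, germ cells and early ectoderm. AP-2δ (TFAP2D) is known from the midbrain and retina, and AP-2ε (TFAP2E) from the olfactory bulb and cartilage. SOX9 is a high-mobility-group factor of the neural crest and of chondrocytes.

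All CNCCs came from the human embryonic stem cell line H9. In SOX9-tagged cells the endogenous SOX9 protein carries FKBP12-F36V, a degron through which the small molecule dTAGV-1 recruits a ubiquitin ligase and SOX9 is degraded. The dose series held 42 samples, 7 for each of 0, 0.5, 1.6, 5, 16 and 500 nM dTAGV-1 for 48 h, which by the labels left 100, 77.9, 51.7, 25.8, 8.14 and 0.95% of SOX9. The 7 replicates were 4 differentiations of clone S9CC13 and 3 of clone S9CC47. Wild-type (WT) H9-derived CNCCs, which carry no degron, were treated with 0 or 500 nM for 48 h, with 2 samples per group. A time course of both genotypes held vehicle for 24 h and 500 nM for 3 h or 24 h, also with 2 samples per group, from differentiations R4 and R5. ATAC-seq, in which the Tn5 transposase inserts adapters into open chromatin, gave 22.9 M to 81.0 M counts in REs per sample, with a median of 45.6 M. A level below is in CPM, the counts scaled to a fixed library size and normalized by TMM, and a change is a log2 fold change with its standard error. An RE was called where its edgeR adjusted p-value over all 151457 REs was under 0.05. Accessibility is no measure of transcript or protein, and neither AP-2 nor SOX9 protein is among the values analysed here. The study defined SOX9 dosage by flow cytometry, from the fluorescence of the tagged protein.

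The cell type was checked by the promoters of marker genes, with a promoter RE defined as one whose midpoint lies within 1 kb of a start site. All 8 neural crest markers had a promoter RE, from 23.2 CPM at PDGFRA to 94.4 CPM at ALX1 without dTAGV-1, and 0 of 8 were called at 500 nM. Their summed level ran from 317 to 441 CPM at 0 nM and from 325 to 425 CPM at 500 nM. Of 7 markers of surface ectoderm and epithelium, where TFAP2A and TFAP2C are also used, 5 had a promoter RE, TP63 and KRT5 had none, and the sum ran from 18.7 to 23.3 CPM at 0 nM and from 19.1 to 23.3 CPM at 500 nM. Of those 5, KRT18 was lower at 500 nM (log2 fold change -0.39 ± 0.14). Of 5 pluripotency markers, 4 had a promoter RE and NANOG had none. PRDM14 stood at 29.2 CPM, above PDGFRA, DPPA4 at 12.4, POU5F1 at 1.28 and TDGF1 at 1.27 CPM, and their sum ran from 33.9 to 64.5 CPM at 0 nM and from 32.1 to 50.9 CPM at 500 nM, with 0 called. All 4 neural progenitor markers had one, of which LHX2 was higher at 500 nM (0.26 ± 0.07). Their sum had a median of 50.9 CPM (34.2 to 56.0) at 0 nM and of 52.0 CPM, with a highest value of 60.4, at 500 nM. Of 4 melanocyte markers DCT and TYR had none. PMEL stood at 105 CPM, above every crest marker, and MITF at 24.6 CPM, with 0 called. REs that also lie at the start of another gene were not left out, so a marker level may belong to a neighbouring gene. After 24 h at 500 nM the crest marker ETS1 was higher (0.45, adjusted p-value 0.00156) and the epithelial GRHL2 was lower (-0.74, 0.0394), and no other marker promoter was called at that time. The part of other cell types in the results below was not tested.

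The sequences of 5 REs are shown because the results below turn on them: the 2 with the largest losses at 500 nM, the intronic TFAP2A RE that was lower at every tested time, the RE with the largest gain, and the most accessible TFAP2A promoter RE. An RE is named by its gene and the distance of its midpoint from the canonical start of that gene, with minus for upstream. Each run is a 300-base stretch of the RE from hg38, plus strand, chosen to hold the most motif matches. Capitals mark the SOX cores ACAAT or ATTGT, a second SOX form ACAAAG or CTTTGT, and the AP-2 palindrome GCCNNNGGC, searched on both strands.

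TFAP2C +77.9 kb, chr20:56707016-56707315: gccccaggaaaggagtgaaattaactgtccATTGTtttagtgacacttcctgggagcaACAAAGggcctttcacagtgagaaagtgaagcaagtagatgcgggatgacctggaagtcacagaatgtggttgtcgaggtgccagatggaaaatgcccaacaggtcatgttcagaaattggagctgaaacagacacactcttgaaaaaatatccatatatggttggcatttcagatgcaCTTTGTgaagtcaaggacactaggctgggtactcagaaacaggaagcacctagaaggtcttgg

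TFAP2E -33.9 kb, chr1:35539274-35539573: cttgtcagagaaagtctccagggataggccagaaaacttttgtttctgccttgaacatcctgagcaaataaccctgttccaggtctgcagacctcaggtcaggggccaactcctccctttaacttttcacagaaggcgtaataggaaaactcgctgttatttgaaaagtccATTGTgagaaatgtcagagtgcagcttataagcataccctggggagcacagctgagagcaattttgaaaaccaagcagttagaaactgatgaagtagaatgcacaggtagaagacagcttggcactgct

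TFAP2A +19.0 kb, chr6:10396022-10396321: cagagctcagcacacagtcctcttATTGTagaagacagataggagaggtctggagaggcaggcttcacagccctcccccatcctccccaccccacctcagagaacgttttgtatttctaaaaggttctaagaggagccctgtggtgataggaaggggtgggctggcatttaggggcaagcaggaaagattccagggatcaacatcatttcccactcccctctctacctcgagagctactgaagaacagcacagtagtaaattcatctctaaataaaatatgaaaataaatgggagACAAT

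TFAP2A +99.9 kb, chr6:10315018-10315317: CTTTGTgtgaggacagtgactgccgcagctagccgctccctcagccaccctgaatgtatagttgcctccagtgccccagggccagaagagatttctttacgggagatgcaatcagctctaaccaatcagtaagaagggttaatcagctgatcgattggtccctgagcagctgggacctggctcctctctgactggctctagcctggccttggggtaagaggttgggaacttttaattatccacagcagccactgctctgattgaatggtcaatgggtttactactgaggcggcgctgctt

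TFAP2A +10.7 kb, chr6:10404187-10404486: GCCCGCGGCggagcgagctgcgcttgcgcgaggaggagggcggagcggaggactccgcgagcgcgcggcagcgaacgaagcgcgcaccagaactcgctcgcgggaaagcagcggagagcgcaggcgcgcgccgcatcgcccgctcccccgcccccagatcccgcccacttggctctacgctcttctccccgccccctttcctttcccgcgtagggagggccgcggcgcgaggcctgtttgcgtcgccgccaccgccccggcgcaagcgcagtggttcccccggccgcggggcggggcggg

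The stretch of TFAP2C +77.9 kb held 1 SOX core and 2 matches of the second form, that of TFAP2E -33.9 kb 1 core, and that of TFAP2A +19.0 kb 2 cores. In TFAP2A +99.9 kb, the RE that gained accessibility, the stretch held 1 match of the second form and no core, with 1 core elsewhere in the RE. The stretch of the TFAP2A promoter RE held 1 AP-2 palindrome and no SOX match. Among the 80 REs, 47.5% held a SOX core, against 54.5% of all REs. For the second form the shares were 41.2% and 35.9%, and for the AP-2 palindrome 31.2% and 27.1%. Of the 8 members that were lower at 500 nM, 6 held a core and 1 held the AP-2 palindrome. All 3 members that were higher held a core, and 1 of them held the palindrome. The 69 members that were not called held a core in 29 cases and the palindrome in 23. Among members of 501 bp, the usual width, 44.8% held a core and 20.9% the palindrome, against 52.4% and 23.1% of all REs of that width. A pair of cores facing each other, ACAAT then 3 to 5 bases then ATTGT, occurred in 1 member, TFAP2A +107.4 kb, which was not called at 500 nM (0.03 ± 0.09).

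The first question was which of these REs depended on SOX9. At 500 nM, 11 of the 80 REs (13.8%) were called, against 24.1% of all REs. Of these, 8 were lower and 3 higher, where 13.9% of all REs were lower and 10.2% higher. All 11 lay outside promoters, and 0 of the 19 members within 1 kb of any start site were called (2 at an unadjusted p-value under 0.05, and 14.6% of all promoter REs called). Among the 61 other members 18.0% were called, against 26.9% of all REs away from start sites. The median change was -0.06 over the 80 REs and 0.02 over all REs, and 46 of the 80 values were negative. Members held more counts than most REs, with a median level of 4.73 CPM at 0 nM against 2.44 CPM. With the replicate (clone and differentiation) as a block in place of the batch, 20 members were called, 13 lower and 7 higher, against 30.6% of all REs, and these included the 11. Of the 9 added, 1 was a promoter RE, TFAP2E -15.9 kb at the start of KIAA0319L and NCDN (0.12, adjusted p-value 0.0462). Without replicate S9CC47_R6 18 members were called at 500 nM in the fit with batch, and its share of all REs is not given here. Over all comparisons with batch, 16 members were called at least once and 64 never.

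**Figure D1:**
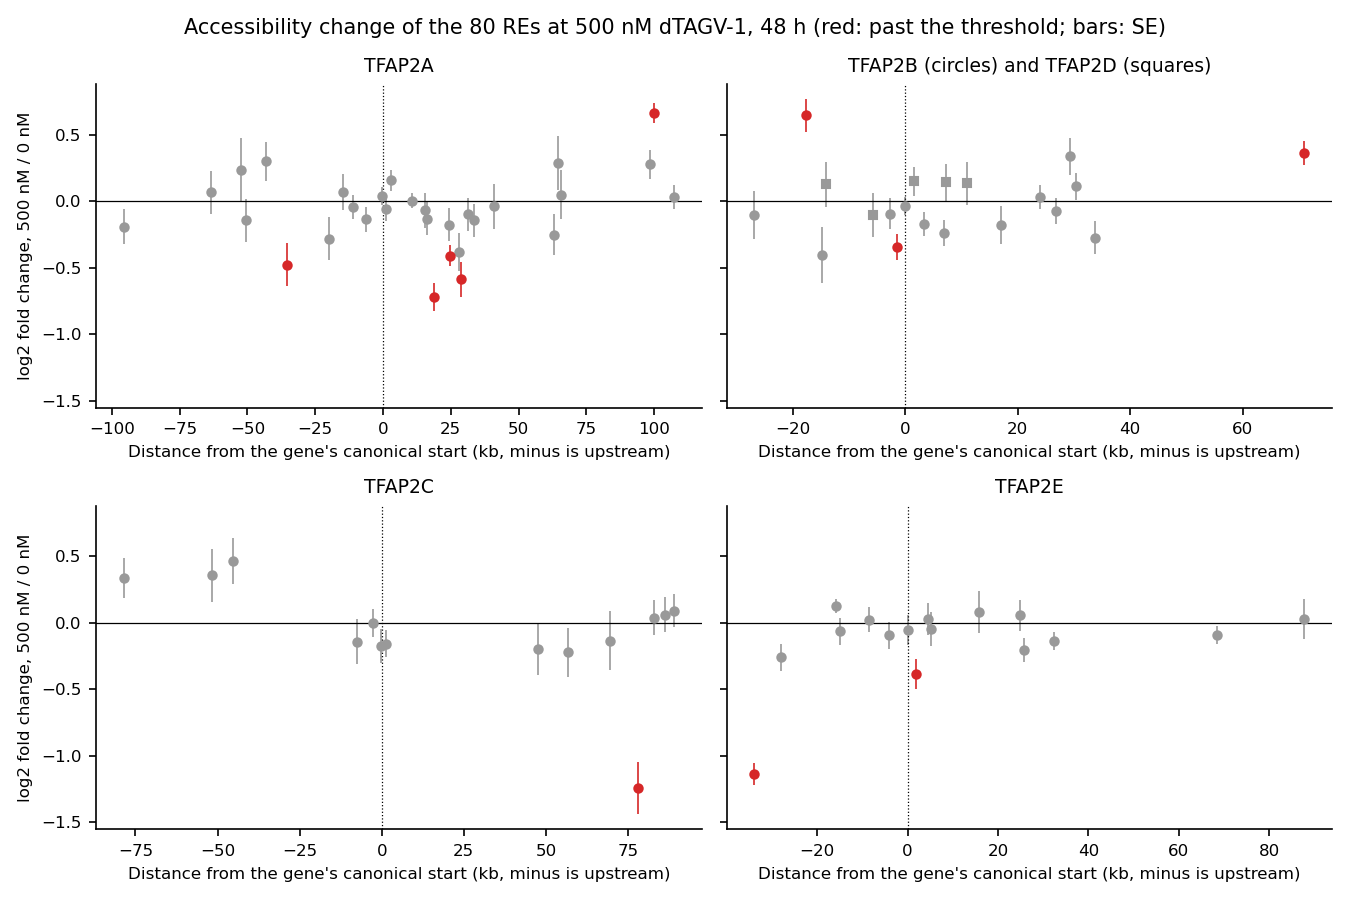
The log2 fold change of each of the 80 REs at 500 nM against 0 nM dTAGV-1 after 48 h (y axis, bars are standard errors) is plotted against the distance in kb from the canonical start of the nearest TFAP2 gene (x axis), with called REs in red. The largest losses, -1.24 at TFAP2C +77.9 kb and -1.13 at TFAP2E -33.9 kb, lie far from the starts, while the 11 promoter REs of the TFAP2 genes lie between -0.18 and 0.16.

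At the TFAP2A locus, 5 of 30 REs were called at 500 nM (16.7%, against 24.1% of all REs), 4 lower and 1 higher. TFAP2A +19.0 kb (chr6:10395834-10396334, in an intron of TFAP2A) ran from 7.18 to 11.5 CPM at 0 nM with a median of 8.46, and from 4.47 to 6.74 CPM with a median of 5.40 at 500 nM. The ranges did not overlap, and the change was -0.72 ± 0.10 (adjusted p-value 8.05e-06), lower in 7 of 7 replicates. Beyond the 3′ end of the gene, TFAP2A +28.6 kb (chr6:10386265-10386765) ran from 2.94 to 6.95 CPM with a median of 4.46 at 0 nM and from 2.06 to 4.38 CPM with a median of 3.07 at 500 nM. It fell in 7 of 7 replicates (-0.59 ± 0.13, adjusted p-value 0.00148), and its ranges overlapped. The more accessible TFAP2A +24.9 kb (chr6:10389955-10390455) ran from 15.1 to 22.2 CPM with a median of 18.6 at 0 nM and from 12.4 to 16.7 CPM with a median of 13.7 at 500 nM. This RE was also lower in 7 of 7 replicates (-0.41 ± 0.08, adjusted p-value 0.000265), again with overlapping ranges. Upstream, in an intron of the noncoding gene MIR5689HG, TFAP2A -35.6 kb had a median of 2.42 CPM at 0 nM (1.42 to 3.30) and of 1.71 CPM at 500 nM (1.14 to 2.52). It was lower in 6 of 7 replicates (-0.48 ± 0.16, adjusted p-value 0.0306), and the call was lost when any of S9CC13_R13, S9CC13_R14, S9CC47_R5 or S9CC47_R8 was left out, with changes of -0.46, -0.41, -0.42 and -0.47 in that order.

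The RE of the TFAP2A locus that opened was the distal TFAP2A +99.9 kb (chr6:10314928-10315428, intergenic). Its level ran from 7.87 to 15.1 CPM with a median of 11.5 at 0 nM and from 14.5 to 21.9 CPM with a median of 18.6 at 500 nM. All 7 replicates rose and the ranges overlapped only at their ends, with a change of 0.66 ± 0.08 (adjusted p-value 2.26e-07). A neighbour, TFAP2A +98.5 kb, changed by 0.28 ± 0.11 (adjusted p-value 0.0741) and was called only with the replicate as block (0.27, 0.0111).

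None of the 4 TFAP2A promoter REs was called at 500 nM. The most accessible was not at the canonical start but 10.7 kb into the gene, at alternative starts shared with the antisense gene TFAP2A-AS2 (chr6:10403635-10405212). TFAP2A +10.7 kb ran from 35.6 to 65.9 CPM at 0 nM with a median of 48.8, and from 40.5 to 68.6 CPM at 500 nM with a median of 47.2. These ranges nearly coincide, and the change was 0.00 ± 0.06 (adjusted p-value 0.971). The 3 other TFAP2A promoter REs, -0.2, +1.0 and +2.8 kb from the canonical start, held 17.9 ± 1.96, 13.3 ± 1.86 and 16.7 ± 3.55 CPM (SD, n = 7) at 0 nM. Their changes at 500 nM were 0.04 ± 0.07, -0.06 ± 0.09 and 0.16 ± 0.08, with adjusted p-values of 0.740, 0.676 and 0.163.

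The clones lay apart at this promoter. At 0 nM, TFAP2A +10.7 kb held 56.7 ± 7.08 CPM (SD, n = 4) in S9CC13, from 48.8 to 65.9, and 41.2 ± 4.93 CPM (SD, n = 3) in S9CC47, from 35.6 to 44.8. In differentiation R6, the only one with both clones, the values were 48.8 and 43.3 CPM at 0 nM and 46.1 and 47.2 CPM at 500 nM, so the order of the clones was not kept there. The TFAP2C promoter RE described below had the same order, with 12.6 ± 1.93 CPM in S9CC13 and 8.29 ± 1.90 CPM in S9CC47 at 0 nM. Within R6 the TFAP2C values were 10.6 and 7.84 CPM at 0 nM and 10.2 and 6.79 CPM at 500 nM. The clones were otherwise made in different differentiations, so clone and differentiation cannot be told apart, and no test of the clones was made.

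**Figure D2:**
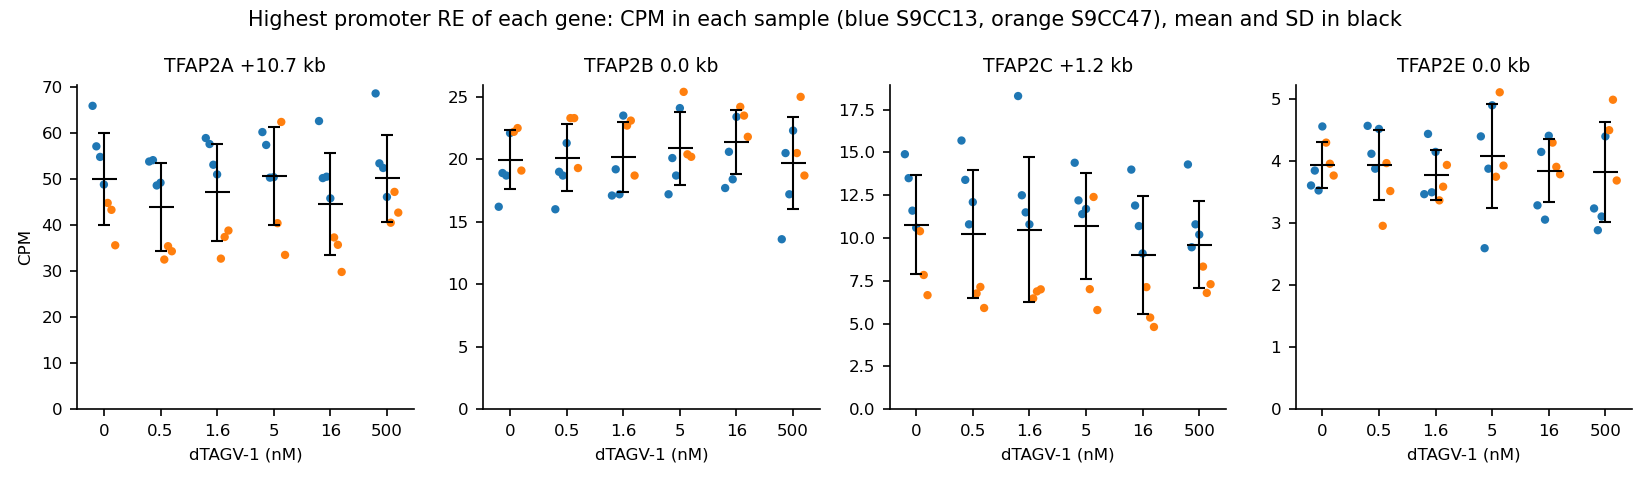
CPM (y axis) of the highest promoter RE of TFAP2A, TFAP2B, TFAP2C and TFAP2E in each of the 42 SOX9-tagged samples is plotted by dTAGV-1 concentration (x axis, nM), with S9CC13 in blue, S9CC47 in orange and the mean and SD (n = 7) in black. The means of the doses differ by less than their SDs. These SDs are across replicates and do not measure the spread of the change within a replicate. At TFAP2A and TFAP2C most orange points lie below the blue ones.

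At TFAP2B and TFAP2D the called REs moved in both directions. TFAP2B -17.7 kb (chr6:50800910-50801410, intergenic, between the genes) ran from 1.48 to 2.87 CPM with a median of 1.87 at 0 nM and from 2.35 to 4.80 CPM with a median of 3.02 at 500 nM. It rose in 7 of 7 replicates with overlapping ranges (0.64 ± 0.12, adjusted p-value 0.000272). Downstream of TFAP2B, the 905-bp RE TFAP2B +71.0 kb (chr6:50889463-50890367, intergenic) went from a median of 7.84 CPM (5.49 to 10.1) to 10.6 CPM (6.92 to 12.9), a rise in 7 of 7 replicates of 0.36 ± 0.09 (adjusted p-value 0.00402). Just upstream of the promoter, TFAP2B -1.4 kb (chr6:50817257-50817757) was lower in 7 of 7 replicates, from a median of 7.90 CPM (7.25 to 9.34) to 6.52 CPM (4.93 to 7.97). That change was -0.34 ± 0.10 (adjusted p-value 0.0118), and it was no longer called without S9CC47_R5 (-0.29, adjusted p-value 0.0515).

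The promoter itself, TFAP2B 0.0 kb (chr6:50818628-50819128, over an untranslated exon), ran from 16.2 to 22.5 CPM with a median of 19.1 at 0 nM and from 13.6 to 25.0 CPM with a median of 20.5 at 500 nM. The 0 nM range lay inside that at 500 nM, and the change was -0.03 ± 0.07 (adjusted p-value 0.782). A second promoter RE, TFAP2B +3.4 kb, changed by -0.17 ± 0.09 (adjusted p-value 0.199). TFAP2D had no RE with its midpoint within 1 kb of a start. The RE nearest to its canonical start, TFAP2D +1.6 kb, held 3.92 ± 0.41 CPM (SD, n = 7) at 0 nM and changed by 0.15 ± 0.11 (adjusted p-value 0.360). The 4 other REs nearest to TFAP2D held from 1.29 to 2.37 CPM, and none was called in any comparison.

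At TFAP2C 1 of 14 REs was called at 500 nM (7.14%, against 24.1% of all REs), and it had the largest loss of the family. TFAP2C +77.9 kb (chr20:56706916-56707416, intergenic) ran from 1.34 to 2.07 CPM with a median of 1.61 at 0 nM, and from 0.315 to 0.991 CPM with a median of 0.688 at 500 nM. The ranges did not overlap, and the change was -1.24 ± 0.20 (adjusted p-value 2.90e-05), lower in 7 of 7 replicates. This was a weakly accessible RE, and its raw counts ran from 56 to 106 per sample at 0 nM and from 13 to 39 at 500 nM. The TFAP2C promoter RE, TFAP2C +1.2 kb (chr20:56630019-56630954, in an intron), held 5 matches of the AP-2 palindrome, more than any other member. It ran from 6.66 to 14.9 CPM with a median of 10.6 at 0 nM and from 6.79 to 14.3 CPM with a median of 9.46 at 500 nM, with a change of -0.16 ± 0.10 (adjusted p-value 0.313).

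At TFAP2E, 2 of 16 REs were called at 500 nM (12.5%, against 24.1% of all REs), both lower. TFAP2E -33.9 kb (chr1:35539174-35539674) lies in an intron of the neighbouring gene KIAA0319L, so distance alone ties it to TFAP2E. Its level ran from 12.7 to 26.4 CPM with a median of 19.3 at 0 nM and from 6.05 to 11.2 CPM with a median of 8.91 at 500 nM. The ranges did not overlap, and the change of -1.13 ± 0.08 had the smallest adjusted p-value of the family (8.47e-11). Its counts ran from 466 to 1733 per sample at 0 nM and from 225 to 724 at 500 nM. In an intron of the gene, TFAP2E +1.9 kb (chr1:35574998-35575498) went from a median of 5.44 CPM (3.63 to 7.14) to 4.00 CPM (2.93 to 5.82) and was lower in 7 of 7 replicates (-0.39 ± 0.11, adjusted p-value 0.0127). The promoter RE TFAP2E 0.0 kb held a median of 3.84 CPM (3.52 to 4.55) at 0 nM and of 3.68 CPM (2.88 to 4.98) at 500 nM, with a change of -0.06 ± 0.11 (adjusted p-value 0.779). The most accessible RE of all 80, TFAP2E -15.9 kb, is the promoter of KIAA0319L and NCDN, and its median was 74.2 CPM (52.5 to 90.8) at 0 nM and 78.8 CPM (67.0 to 90.4) at 500 nM. It was higher in 6 of 7 replicates (0.12 ± 0.05, adjusted p-value 0.106), and was called with the replicate as block (adjusted p-value 0.0462). At 16 nM the block fit called it lower (-0.16, 0.0238).

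Intermediate SOX9 levels were then compared with the full level. At 16 nM 10 of 80 REs (12.5%) were called, 7 lower and 3 higher, against 16.2% of all REs with 9.12% lower and 7.12% higher. At 5 nM 3 of 80 (3.75%) were called, all lower, against 5.32% of all REs with 4.24% lower and 1.08% higher. At 1.6 nM 0 of 80 were called and at 0.5 nM also 0. An unadjusted edgeR p-value under 0.05 was found for 4 and 1 members, and for 7809 and 5219 of all 151457 REs. DESeq2 also called 0 members at both doses, and edgeR called 0.0383% of all REs at 1.6 nM and 0% at 0.5 nM. With the replicate as block, 20 members were called at 16 nM, against 26.1% of all REs, and 7 at 5 nM, against 8.53%. At 1.6 and 0.5 nM 0 members were called with that block. The 10 added at 16 nM included 4 promoter REs, among them TFAP2A +1.0 kb (-0.23, adjusted p-value 0.00697) and TFAP2C +1.2 kb (-0.30, 0.00149). TFAP2C +1.2 kb was lower at 16 nM in 7 of 7 replicates, by log2 differences from -0.51 to -0.09. The differences ran from -0.513 to -0.435 in S9CC47 and from -0.213 to -0.086 in S9CC13. At the KIAA0319L and NCDN promoter TFAP2E -15.9 kb they ran from -0.581 to -0.235 and from -0.047 to 0.037. Clones were not tested against each other. The count at 16 nM was 19 without S9CC13_R6. The count at 5 nM was 9 without S9CC47_R6 and 1 without S9CC13_R10, S9CC13_R13, S9CC47_R5 or S9CC47_R8. Shares of all REs in these left-out fits are not given here.

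The 3 REs called at 5 nM were TFAP2C +77.9 kb, TFAP2A +19.0 kb and TFAP2E -33.9 kb, and their dose responses had different shapes. The 5 nM call of TFAP2C +77.9 kb was kept in all 14 alternatives. That of TFAP2A +19.0 kb was lost in 5 of 14, and that of TFAP2E -33.9 kb (-0.27 ± 0.07, adjusted p-value 0.0395) in 6 of 14. All doses share the 0 nM samples, so the values are given side by side with no test between doses. TFAP2C +77.9 kb was already at its low level at 5 nM, where its change was -1.29 ± 0.17 (adjusted p-value 0.000175), against -1.40 ± 0.18 at 16 nM. As a share of the mean 500 nM change, with each replicate set against its own 0 nM sample, it reached 43.3% ± 33.0 (SD, n = 7) at 1.6 nM, 105% ± 32.5 at 5 nM and then 110% ± 34.6 at 16 nM. TFAP2E -33.9 kb instead lost accessibility step by step, with 3.61% ± 10.9 of its change at 1.6 nM, 24.5% ± 8.76 at 5 nM and 53.1% ± 18.1 at 16 nM. Its medians fell from 19.3 CPM at 0 nM to 16.2 at 5 nM, 13.3 at 16 nM and 8.91 at 500 nM. TFAP2A +19.0 kb lay between them, with 26.7% ± 27.2, 55.8% ± 30.9 and 72.4% ± 39.0 at the same doses.

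Among the other called REs, TFAP2A +99.9 kb reached 45.7% ± 30.8 of its gain at 5 nM and 78.3% ± 21.0 at 16 nM (SD, n = 7). TFAP2A +28.6 kb, TFAP2B -17.7 kb and TFAP2B +71.0 kb had means above their 500 nM change at 16 nM, with 118% ± 42.2, 118% ± 61.0 and 122% ± 56.0, each within 1 SD of the full change. TFAP2A +24.9 kb and TFAP2B -1.4 kb reached 53.3% ± 27.1 and 80.6% ± 58.1 at that dose. TFAP2E +1.9 kb reached 21.2% ± 83.7 at 16 nM, a spread too wide to place it. Over the 10 REs that were called and moved the same way in 7 of 7 replicates, the median share was 79.5% at 16 nM, 50.7% at 5 nM and 21.5% at 1.6 nM. The TFAP2A promoter RE +10.7 kb, which did not differ at 500 nM by the test, was called at 16 nM (-0.18 ± 0.06, adjusted p-value 0.0368), with medians of 48.8 CPM at 0 nM and 45.8 CPM (29.8 to 62.6) at 16 nM. All 7 replicates were lower, by log2 differences from -0.275 to -0.25 in S9CC47 and from -0.185 to -0.074 in S9CC13. The call was lost under 10 of 14 alternatives, among them DESeq2, RLE normalization and leaving out each of 5 replicates, while the change stayed between -0.20 and -0.15.

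**Figure D3:**
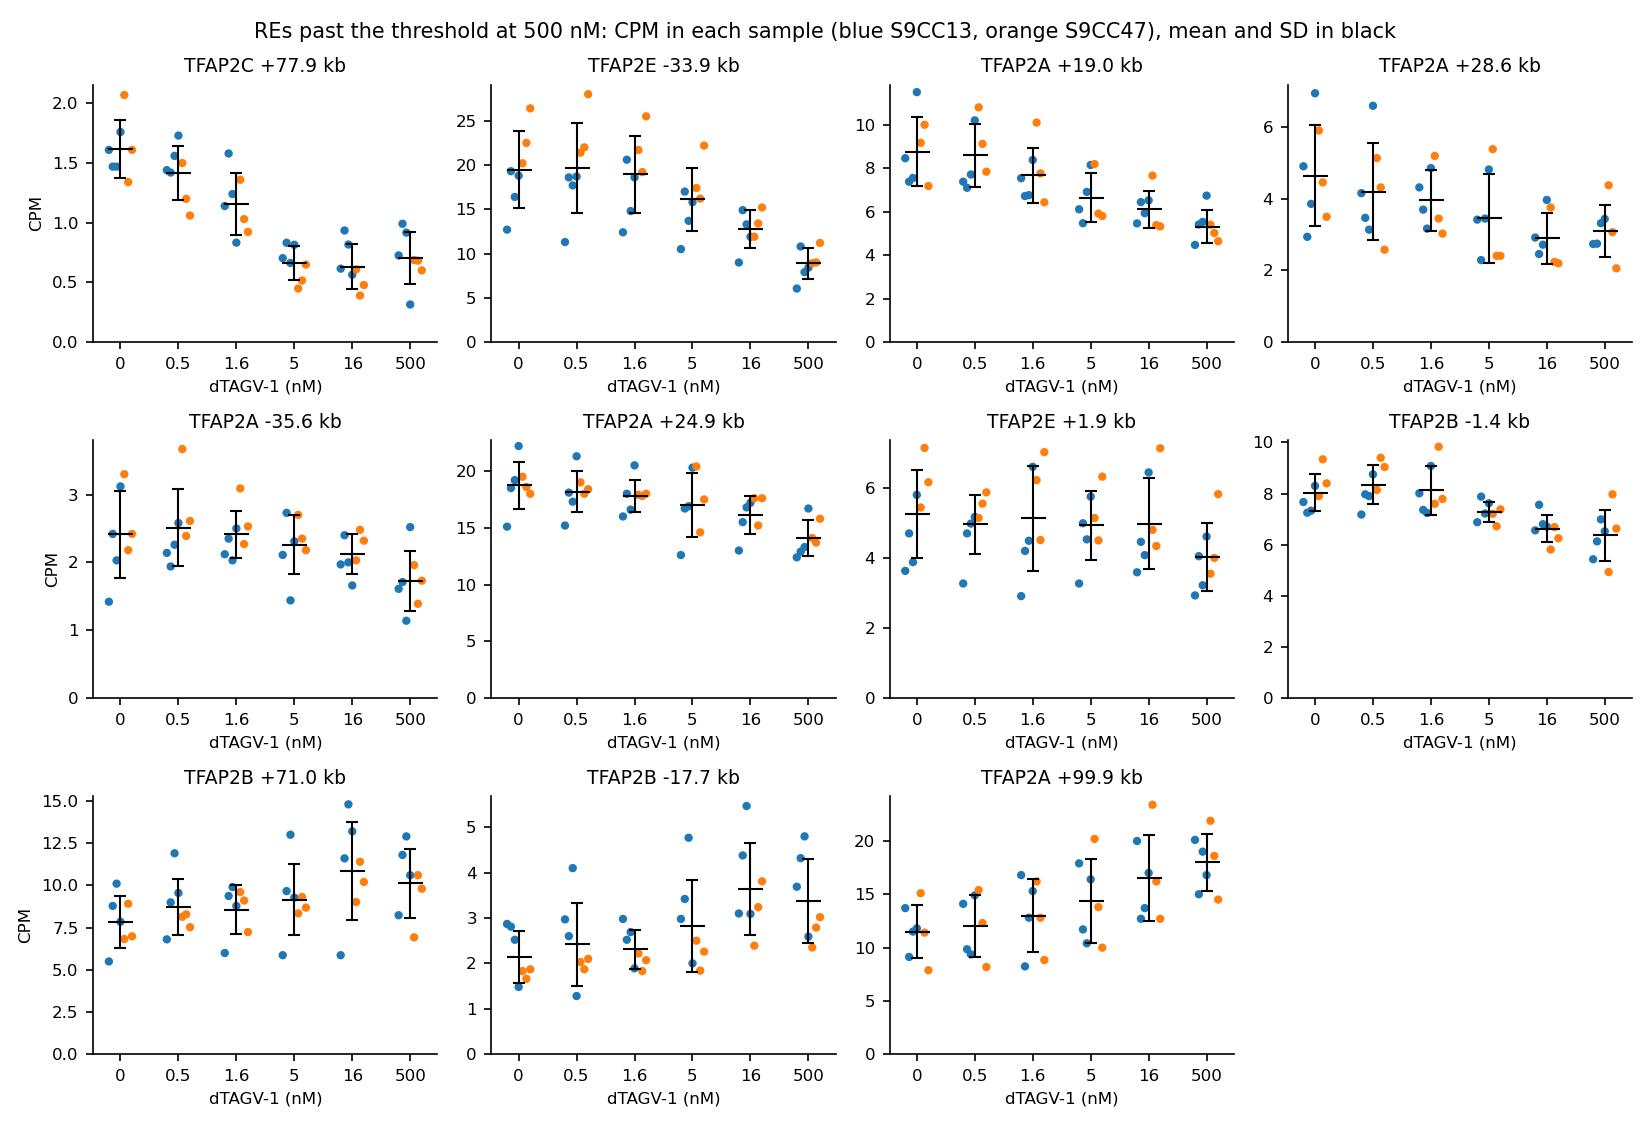
CPM (y axis) of the 11 REs called at 500 nM in each of the 42 SOX9-tagged samples is plotted by dTAGV-1 concentration (x axis, nM), with S9CC13 in blue, S9CC47 in orange and the mean and SD (n = 7) in black. TFAP2C +77.9 kb is at its low level from 5 nM on, while TFAP2E -33.9 kb falls at each step from 1.6 to 500 nM.

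The time course asked how soon after depletion the REs changed. At 3 h 5 of 80 REs (6.25%) were called, all lower, against 8.34% of all REs with 7.43% lower and 0.912% higher. At 24 h 9 (11.2%) were called, 7 lower and 2 higher, against 14.6% of all REs with 9.93% lower and 4.70% higher. DESeq2 called 3 and 5 members. Each group held 2 samples, and the counts were 2 and 3 at 3 h and 2 and 4 at 24 h when R4 or R5 of the tagged cells was left out.

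The 2 largest losses of the dose series were present at 3 h. TFAP2E -33.9 kb went from 29.6 and 30.4 CPM with vehicle to 14.2 and 15.8 CPM at 3 h and 14.8 and 15.6 CPM at 24 h. The groups were well apart, with changes of -1.06 ± 0.09 at 3 h (adjusted p-value 9.64e-08) and -1.04 ± 0.09 at 24 h (7.26e-08). TFAP2C +77.9 kb went from 1.58 and 2.60 CPM to 0.705 and 0.866 CPM at 3 h and 0.558 and 0.903 CPM at 24 h, with changes of -1.46 ± 0.28 and -1.57 ± 0.27 (adjusted p-values 0.0012 and 0.000386). TFAP2A +19.0 kb, in the gene's intron, went from 9.27 and 10.3 CPM to 6.15 and 6.56 CPM at 3 h and 6.21 and 6.53 CPM at 24 h. Its changes were -0.68 ± 0.13 at 3 h and -0.67 ± 0.13 at 24 h, with adjusted p-values of 0.00162 and 0.00122. Without R4 the TFAP2A +19.0 kb calls were lost at 3 h (-0.56, adjusted p-value 0.340) and at 24 h (-0.65, 0.146), and without R5 the TFAP2C +77.9 kb call was lost at 3 h (-0.95, 0.180). At these 3 REs the values at 3 h and 24 h were close to each other. TFAP2A +28.6 kb was also lower at 3 h and 24 h (-0.68 ± 0.20 and -0.87 ± 0.20, adjusted p-values 0.0434 and 0.00592). Both calls were lost without R4 of the tagged cells (-0.30 and -0.60), and the 3 h call was also lost with DESeq2.

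Other REs were called at 1 time. TFAP2B +33.7 kb, named after its values were seen, was lower at 3 h (-0.52 ± 0.15, adjusted p-value 0.0367) and stood at -0.33 ± 0.15 at 24 h (0.158). At 48 h and 500 nM it was called only with the replicate as block (-0.27, 0.0381). The opening of TFAP2B -17.7 kb was called at 24 h, from 1.39 and 1.85 CPM with vehicle to 2.14 and 3.53 CPM (0.74 ± 0.22, adjusted p-value 0.0291), and stood at 1.62 and 1.80 CPM at 3 h (0.05 ± 0.23, 0.959). TFAP2B -1.4 kb likewise was lower at 24 h (-0.41 ± 0.13, 0.0485) and stood at -0.02 ± 0.13 at 3 h (0.973). TFAP2A +99.9 kb, which with TFAP2B -17.7 kb had the largest gains at 500 nM and 48 h, was called at neither time, with -0.02 ± 0.13 at 3 h and 0.27 ± 0.13 at 24 h (adjusted p-values 0.969 and 0.204). The calls of TFAP2B +33.7 kb, TFAP2B -17.7 kb and TFAP2B -1.4 kb were each lost when either batch was left out, with changes of -0.59 and -0.48, 0.55 and 0.87, and -0.31 and -0.52 without R4 and R5. They were also lost with DESeq2. The differences between 3 h and 24 h were not tested. TFAP2B -14.8 kb (-1.22 ± 0.31, adjusted p-value 0.0121), TFAP2A -20.0 kb at the LINC00518 and MIR5689HG promoters (-0.73 ± 0.23, 0.037) and the KIAA0319L and NCDN promoter TFAP2E -15.9 kb (0.33 ± 0.07, 0.00227) were called at 24 h and not at 48 h in the fits with batch. The first 2 held under 2 CPM in the vehicle samples, and all 3 calls were lost when R4 or R5 was left out, with changes of -1.10 and -1.35, -0.71 and -0.77, and 0.30 and 0.35. With DESeq2 the calls of TFAP2B -14.8 kb and TFAP2A -20.0 kb were lost as well.

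**Figure D4:**
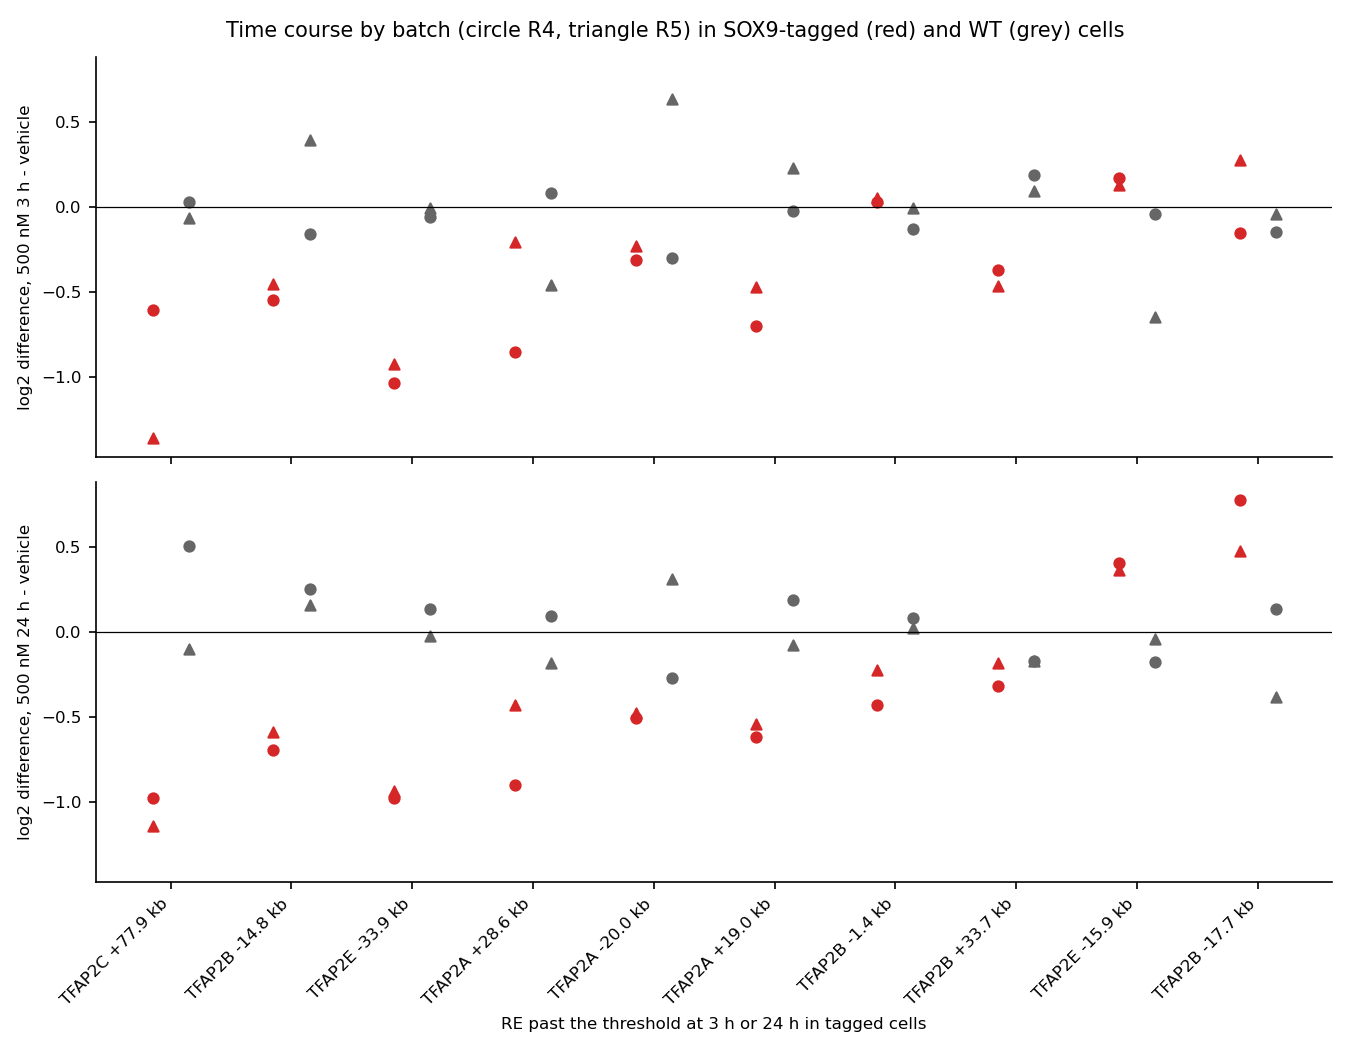
The log2 difference of CPM + 0.5 between 500 nM dTAGV-1 and vehicle of the same batch (y axis) at 3 h (top) and 24 h (bottom) is plotted for the 10 REs called at either time (x axis), with SOX9-tagged cells in red, WT cells in grey, batch R4 as circles and R5 as triangles. At TFAP2E -33.9 kb both red points lie near -1 at both times and the grey points near 0.

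WT cells, in which dTAGV-1 has no tagged SOX9 to act on, were treated in the time course batches R4 and R5, and for 48 h in batches R8 and RSh. No tagged sample came from RSh. At 3 h, 24 h and 48 h 0 of 80 REs were called in WT cells by edgeR and by DESeq2. The edgeR p-value before adjustment was under 0.05 for 3, 1 and 7 members, and for 3656, 4642 and 12537 of all 151457 REs. Over all REs edgeR called 0% at 3 h, 0% at 24 h and 0.303% at 48 h. TFAP2E -33.9 kb held 29.1 and 30.0 CPM with vehicle in WT cells, 28.0 and 29.9 CPM at 3 h and 29.5 and 32.1 CPM at 24 h. At 48 h it held 18.6 and 24.0 CPM without and 19.7 and 22.1 CPM with 500 nM. At TFAP2E -33.9 kb the WT samples thus overlapped at each time, and none came near the levels of the depleted tagged cells. Other REs were not as clear at 48 h. TFAP2C +77.9 kb held 0.73 and 1.16 CPM without and 0.976 and 1.32 CPM with 500 nM in WT cells. The tagged range at 500 nM, 0.315 to 0.991 CPM, overlapped these values. TFAP2A +19.0 kb held 6.83 and 7.12 CPM without and 6.33 and 7.61 CPM with 500 nM in WT cells, against 4.47 to 6.74 CPM in tagged cells at 500 nM.

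The difference between the genotypes was tested as an interaction in the time course. At 3 h 3 of 80 REs (3.75%) were called against 5.20% of all REs, and at 24 h 4 (5.00%) against 6.73%. TFAP2E -33.9 kb, TFAP2C +77.9 kb and TFAP2A +19.0 kb were called at both times. The tagged effect lay below the WT effect by -1.05 ± 0.15 on the log2 scale at 3 h for TFAP2E -33.9 kb (adjusted p-value 4.58e-05), by -1.47 ± 0.34 for TFAP2C +77.9 kb (0.00864) and by -0.82 ± 0.21 for TFAP2A +19.0 kb (0.0169). At 24 h these values were -1.13 ± 0.15, -1.84 ± 0.34 and -0.77 ± 0.21, and TFAP2B -14.8 kb was called as well (-1.55 ± 0.44, 0.0298). The counts were 1 at 3 h without WT replicate R5, and 2 at 24 h without R4 of either genotype. At 3 h the call of TFAP2A +19.0 kb was lost without tagged R4 (-0.69) or WT R5 (-0.65), and that of TFAP2C +77.9 kb without tagged R5 (-0.96) or WT R5 (-1.50). At 24 h the call of TFAP2A +19.0 kb was lost without tagged R4 (-0.73), tagged R5 (-0.79) or WT R4 (-0.60). That of TFAP2B -14.8 kb was lost without the same samples (-1.43, -1.67 and -1.48) and with DESeq2. The TFAP2E -33.9 kb calls stayed when either batch of either genotype was left out. Between the genotypes without dTAGV-1, within batches R4, R5 and R8, 0 of 80 REs were called (11 at an unadjusted p-value under 0.05, 0 by DESeq2), against 0.950% of all REs. The unadjusted edgeR p-value was under 0.05 for 19565 of all 151457 REs.

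The windows of genes known to work with AP-2 or downstream of it were read out by the same rule. At the cofactors and inhibitors CITED1, CITED2, CITED4, KCTD1, KCTD15, CREBBP, EP300 and YEATS4, 38 of 162 REs (23.5%) were called at 500 nM, 18 lower and 20 higher, with a median change of 0.03. The most accessible promoter RE was called at 3 of these 8 genes, all higher, where 14.6% of all promoter REs were called and 6.33% were higher. These shares are not like for like. The 3 called REs held 65.2, 40.3 and 40.8 CPM at 0 nM, while all promoter REs had a median of 7.7 CPM. CITED2, a CBP and p300-binding coactivator of AP-2, went from 65.2 ± 11.4 to 71.7 ± 9.93 CPM (0.14 ± 0.05, adjusted p-value 0.0375). KCTD15, which inhibits AP-2α in neural crest formation, changed by 0.20 ± 0.06 (0.0272), and YEATS4 by 0.20 ± 0.07 (0.0313). At KIT, ERBB2, ESR1, CDKN1A, IGFBP5, HOXA2 and KRT14, genes described as AP-2 targets, 35 of 160 REs (21.9%) were called, 26 lower and 9 higher, with a median change of 0.015. None of their 5 promoter REs was called, with changes from -0.04 to 0.17, and HOXA2 and KRT14 had no promoter RE by this definition. Both lists lay near the 24.1% of all REs. The largest change of the first list was in the window of CITED4, from 1.72 to 0.241 CPM (-2.74 ± 0.31, adjusted p-value 1.69e-07). The largest of the second was in the window of ERBB2 at the promoter of its neighbour PGAP3, from 16.3 to 1.77 CPM (-3.23 ± 0.11, 7.85e-17). An RE in the window of KRT14, at the start of MIR6510, followed with 1.34 to 0.551 CPM (-1.29 ± 0.20, 1.8e-05).

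As a description, the promoter REs most like those of the family across the 42 dose samples were sought among 15953 genes, by Pearson correlation of log2 CPM centred within replicates. UBE4B, FHL2 and PAPSS1 were most like TFAP2A (r = 0.93 for each). TMEM179, OST4 and SRPX2 were most like TFAP2B (0.71, 0.68 and 0.67), and MAFA, PISD and PYGL most like TFAP2C (0.90, 0.89 and 0.89). The 42 samples are 6 doses of 7 replicates and are not independent, and no test was made. The r of a typical promoter RE is not given here, so whether these likenesses are particular to the named genes cannot be told.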

How the data were processed

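ATAC-seq was analysed from 1 table of read counts per RE, which the authors deposited for all 58 samples on hg38. Per the labels and methods, reads were aligned with Bowtie2 2.4.1, handled with SAMtools 1.10, bedtools and deepTools 3.5.0, and peaks were called with MACS2 2.2.7.1 and merged. The counts were raw, so depth differences remained, and low REs carried few counts. REs were assigned to genes by GENCODE v44. The members and lists were chosen with earlier results of these data known. Some genes of the AP-2 cofactor and target lists are not reported here, and the counts leave them out.

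Counts were tested with edgeR 4.0.16 in R 4.3.3 (quasi-likelihood F test, TMM, all 151457 REs, no filter, Benjamini-Hochberg adjustment, threshold 0.05), with differentiation batch as a covariate. The code was tested on simulated counts. DESeq2 1.42.0, RLE normalization, a low-count filter, other blocks and sample sets and left-out replicates were the alternatives. Standard errors were derived from the F statistic. Per-sample differences used log2(CPM + 0.5).

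Replicates were differentiations, which the labels name by clone and batch number. Same-numbered samples deviated together in every comparison (lowest correlation 0.205 at 5 nM, mean 0.638 at 500 nM). The numbers were taken as pairs in the per-replicate differences and shares. The main fits used the batch as covariate, so both clones of R6 shared a term there. A block by replicate was an alternative. Samples of a group all differed by more than counting error. For 1 differentiation (S9CC13_R14) the titles and other labels of the 0 and 0.5 nM samples were exchanged, and titles were used. For the tagged time course, batch R5 was named for a different clone in the table than in the titles.

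Named REs were, by rule, the most accessible promoter RE of each gene and RE of each locus, up to 4 called REs per direction and locus that moved the same way in 7 of 7 replicates, any RE called in WT cells or at 1.6 or 0.5 nM, and the RE with the smallest adjusted p-value in the other comparisons. TFAP2A -35.6 kb, TFAP2A -20.0 kb, TFAP2B -14.8 kb, TFAP2B +33.7 kb, the other REs named outside this rule, the second SOX form and the sequences of TFAP2E -33.9 kb and TFAP2A +19.0 kb were chosen after values or sequences were seen.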

Additional observations from a re-analysis of the deposited data

Results flagged for a closer look

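A single sample stood far from the other 6 of its dose group at 3 REs, by Dixon's ratio of the gap to the range. TFAP2A -20.0 kb at 16 nM had a highest sample of 2.18 CPM (S9CC13_R10), against 1.49 CPM for the next. TFAP2A -35.6 kb at 0.5 nM had one of 3.67 CPM (S9CC47_R5), against 2.61 CPM. TFAP2B -14.8 kb at 500 nM had one of 1.23 CPM (S9CC47_R5), against 0.818 CPM. Of 114 such tests 3 passed, and chance alone passes about 1 in 20.

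The response to dTAGV-1 differed between tagged and WT cells by the interaction test at 4 REs. At 3 h the tagged minus WT differences on the log2 scale were -1.05 at TFAP2E -33.9 kb, -1.47 at TFAP2C +77.9 kb and -0.82 at TFAP2A +19.0 kb. At 24 h they were -1.13, -1.84 and -0.77 at the same REs and -1.55 at TFAP2B -14.8 kb.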

How the results depend on the processing

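The number of called members depended on the block. With the replicate block 20, 20 and 7 members were called at 500, 16 and 5 nM, against 30.6%, 26.1% and 8.53% of all REs. With no replicate block or batch the counts were 6, 4 and 1. With no block in the time course 0 and 1 were called at 3 h and 24 h, and 1 and 1 in the interactions at 3 h and 24 h. One fit of all 42 samples called 17 at 500 nM and 6 at 5 nM. DESeq2 called 3 at 3 h and 5 at 24 h. Leaving out 1 replicate in turn gave 10 to 18 at 500 nM, 8 to 19 at 16 nM, 1 to 9 at 5 nM, 2 to 3 at 3 h, 2 to 4 at 24 h, 1 to 4 in the interaction at 3 h and 2 to 5 at 24 h. Outside the replicate block, the share of all REs called is not given for these settings. A shift of the members alone therefore cannot be told from one of all REs. The cause of these shifts was not tested. In the time course a left-out sample leaves an arm with 1 sample, which is assumed to vary like the others. Leaving out WT batches from the interactions was chosen after the data were seen.

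Of the fold changes of named REs under the alternatives, 388 kept their side of the threshold, 102 were no longer called and 0 changed direction. The calls at 500 nM of TFAP2A +19.0, +24.9 and +99.9 kb, TFAP2B -17.7 kb, TFAP2C +77.9 kb and TFAP2E -33.9 kb were kept in all 14 alternatives. With the S9CC13_R14 labels exchanged 13, 10 and 4 members were called at 500, 16 and 5 nM. Depth limits the weak REs most, such as TFAP2C +77.9 kb with 13 to 39 counts per sample at 500 nM.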
